A study of Homo sapiens with 6 samples.

Results

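NR4A1, NR4A2, NR4A3, EGR1, EGR2, IER2 and IER3 are genes of the immediate early response, and they were taken by symbol from a table of 19201 gene entries. Of 8 genes named for this purpose, 7 were in the table and tested, and EGR3 was not analysed here. Counts were available for 6 bulk RNA-seq libraries of H1299, a long-established line grown from a human lung carcinoma. In 3 libraries, called OE, the cells overexpressed the long non-coding RNA lncBCAS1-4_1, and 3 libraries, called Ctrl, came from wild-type H1299 cells with no vector named for them. The labels name no treatment, time point or clone for either group, so the RNA and the procedure used to overexpress it cannot be told apart. In bulk libraries, fewer cells with a transcript and less of it per cell cannot be told apart either. No label says that libraries of a group came from separate cultures, and p-values then measure only the spread between these libraries, which may be technical.

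Immediate early genes are transcribed within minutes of a signal because the factors that switch them on, such as SRF with its ternary complex partners and CREB, are already present in the cell. Their mRNAs and proteins are short-lived. NR4A1 (Nur77), NR4A2 (Nurr1) and NR4A3 (Nor1) are orphan nuclear receptors that bind DNA without a known hormone, as monomers, as dimers or, for NR4A1 and NR4A2, with RXR. EGR1 and EGR2 are zinc finger transcription factors that bind GC-rich elements and induce their own corepressor NAB2. IER2 is a small nuclear protein induced by growth factors, and IER3 is a stress-induced regulator of survival and of ERK signalling.

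The stretches below lie just before annotated starts of genes that were higher in OE and of EGR2, for which no difference was detectable. They are shown because this is where the elements through which such signals are known to act can lie. The first 3 hold some. The last lies before the more upstream of 2 listed NR4A1 starts and holds none. Any NR4A1 start that was not listed was not searched. Each runs from base 150 to base 31 before a RefSeq start on the gene's own strand (RefSeq, GRCh38.p14), and 5 of the 7 genes had an entry among the promoter sequences used. Capitals mark a CArG box, the element bound by SRF, or TGACG on either strand, the core of the element bound by CREB. The order is EGR1 (chr5:138465329-138465448, plus strand), EGR2 (chr10:62816397-62816516, minus strand), NR4A3 (chr9:99821735-99821854, plus strand) and NR4A1 (chr12:52022682-52022801, plus strand).
EGR1: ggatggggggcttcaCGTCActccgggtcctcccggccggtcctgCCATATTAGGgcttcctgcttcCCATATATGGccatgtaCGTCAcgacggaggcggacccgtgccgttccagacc
EGR2: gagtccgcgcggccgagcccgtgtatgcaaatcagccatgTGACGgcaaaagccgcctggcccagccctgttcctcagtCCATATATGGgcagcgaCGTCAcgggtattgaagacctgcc
NR4A3: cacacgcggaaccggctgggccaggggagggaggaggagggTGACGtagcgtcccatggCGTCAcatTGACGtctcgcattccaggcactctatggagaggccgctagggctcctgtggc
NR4A1: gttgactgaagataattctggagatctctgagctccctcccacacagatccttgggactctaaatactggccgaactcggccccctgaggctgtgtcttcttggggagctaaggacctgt

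Over the 250 bases before each start, EGR1 held 2 CArG boxes, beginning 105 and 83 bases before the start, and 2 copies of TGACG. The EGR2 start shown held 1 CArG box and 2 copies of TGACG, and NR4A3 held 4 copies of TGACG and no CArG box. IER2 held 1 copy of TGACG, but 223 of its 250 bases lay in annotated exons of either strand. So did 30 bases for NR4A3 and 7 for the EGR2 start shown. Neither of 2 listed NR4A1 starts nor the other 2 EGR2 starts held either motif. Among 35116 windows of the same length, 1.16% held a CArG box and 21.2% held TGACG. The motifs did not overlap in these windows. EGR1 also held 1 match to GCGNGGGCG, the element bound by EGR proteins, which 8.41% of windows held. No window of these genes held the full element TGACGTCA (1.65% of windows), the NR4A monomer element AAAGGTCA (1.05%) or the AP-1 element TGANTCA (6.57%).

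Total counts were 84531039 to 90102655 in the OE libraries and 87393887 to 92780032 in the Ctrl libraries. CYP24A1, the vitamin D hydroxylase that the series title sets beside the RNA, had 2908 ± 591 CPM (counts scaled by library size; SD, n = 3) in OE and 0.778 ± 0.158 CPM (SD, n = 3) in Ctrl, and no entry named for BCAS1 was analysed here. Of 10 markers of the line, 8 were in the table, with summed levels of 1874 to 2094 CPM in OE and 1483 to 1645 CPM in Ctrl, mostly the keratins KRT8 and KRT18. Fibroblast markers (3 of 8 in the table) summed to 2.26 to 3.58 CPM in OE and 2.16 to 3.06 CPM in Ctrl, and endothelial markers (4 of 6) to 1.09 to 1.96 CPM in OE and 1.08 to 1.86 CPM in Ctrl. Of the leukocyte markers 3 of 8 were in the table, at 79.6 to 88.4 CPM in OE and 69.9 to 74.2 CPM in Ctrl, nearly all of it the lysosomal gene CD68. No marker in the table was at 0 in all libraries, and their part in the results below was not tested.

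Differences were tested with edgeR over 19101 entries, and an entry was called at a Benjamini-Hochberg adjusted p under 0.05. Fold changes in this comparison moved with the GC content of the transcript: the median log2 fold change was -0.35 in the quartile of entries with the lowest GC content and 0.26 in the highest quartile, which began at 56.5%. Each fold change is therefore given also after a correction that removes from each library its trend with GC content and transcript length, after which these medians were -0.020 and -0.012. Canonical transcripts of NR4A1, IER3 and IER2 had GC contents of 60.7%, 58.1% and 63.0%, against 55.3% for EGR1, 51.0% for EGR2, 47.9% for NR4A2, 47.0% for NR4A3 and a median of 48.7% over all entries tested. The cause of the trend was not tested.

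Of the 7 genes 6 were higher in OE, namely all but EGR2, and none was lower, where 18.3% of all entries tested were higher and 19.7% lower. The median log2 fold change of the 7 was 1.5, beside -0.0041 over all entries. The OE libraries lay above every Ctrl library for the same 6 genes, and 24.7% of all entries did so (26.0% lay below). After the correction 5 were higher, without IER2, where 11.4% of entries were higher and 11.3% lower, and the median was 1.2. The labels instead ask for a fold change above 2 and an unadjusted p under 0.05, which the 3 NR4A genes and EGR1 met, beside 1.77% of entries (1.18% on the lower side).

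**Figure D1:**
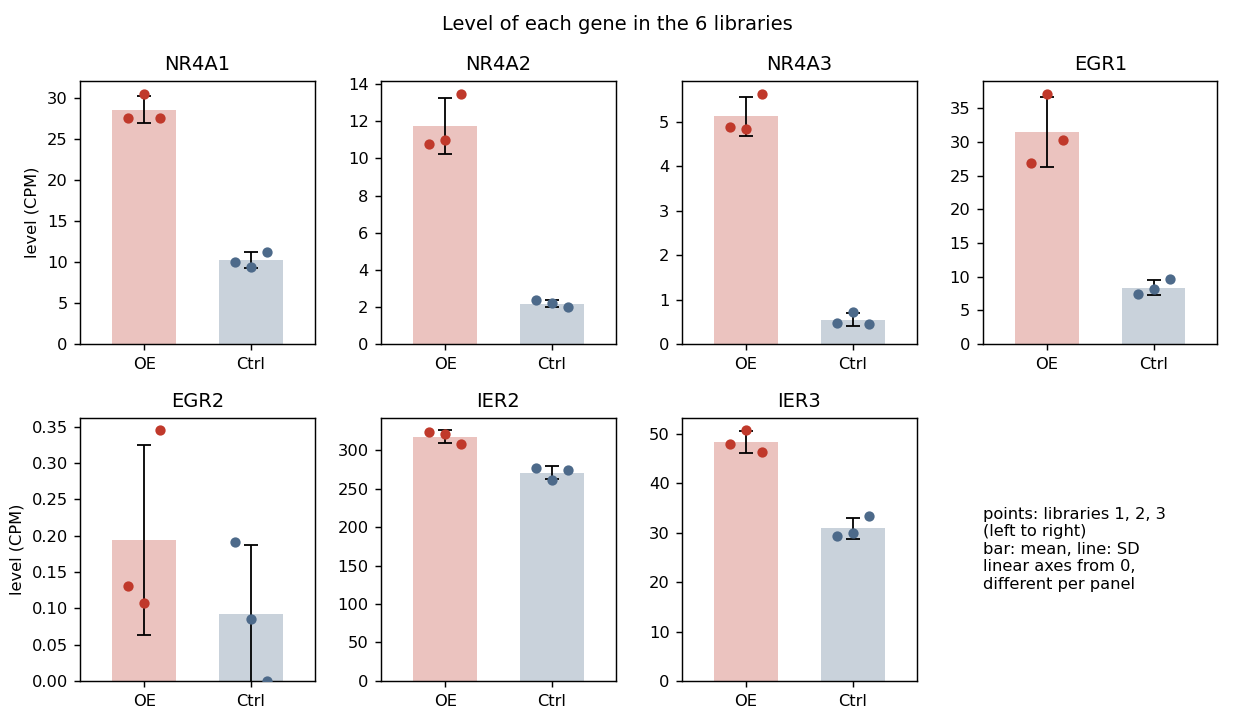
Level in CPM (linear axes from 0, different for each gene) of the 7 genes in the 3 OE and 3 Ctrl libraries, where points are libraries, bars are means and lines are SD (cut at 0 for EGR2). The OE points lie above all Ctrl points for every gene shown except EGR2.

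The largest rise among these genes was that of NR4A3. It had 4.89, 4.84 and 5.64 CPM in OE libraries 1 to 3, from 413, 404 and 507 counts, against 0.471, 0.719 and 0.456 CPM in Ctrl libraries 1 to 3, from 42, 68 and 41 counts. Every OE library was several times above every Ctrl library. The fold change was 9.31 (log2 3.22, SE 0.21, edgeR adjusted p = 3.6e-05), and it ranked 57 among the fold changes of the 19101 entries tested. NR4A3 (ENSG00000119508) spans chromosome 9, 99821855 to 99866891, plus strand (GRCh38 and GENCODE 44, as for all positions here). The antisense transcript STX17-DT overlaps it along all of its length and was at 0.650 CPM in OE and 0.717 CPM in Ctrl (log2 fold change -0.14, edgeR adjusted p = 0.73). The overlap is of gene spans, introns included, and strandedness of the counts is not given in the sources used here. Whether reads of NR4A3 or STX17-DT were counted for the other gene was not tested. After the correction the log2 fold change of NR4A3 was 3.38 (SE 0.21).

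NR4A2, known as a factor that dopamine neurons need and widely induced by cAMP and stress, rose next. Its level was 10.8, 11.0 and 13.5 CPM in OE libraries 1 to 3 against 2.38, 2.20 and 1.98 CPM in Ctrl libraries 1 to 3. The third OE library was the highest, as for NR4A3, and the groups were far apart. The rise was 5.38-fold (log2 2.43, SE 0.14, edgeR adjusted p = 2.3e-05) and 2.44 on the log2 scale after the correction. NR4A2 (ENSG00000153234) spans chromosome 2, 156324437 to 156342348, minus strand.

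NR4A1, the most abundant of the 3 receptors here, rose least of them. It had 27.6, 30.5 and 27.6 CPM in OE libraries 1 to 3 against 10.02, 9.43 and 11.3 CPM in Ctrl libraries 1 to 3. The second OE library was the highest, and both groups were tight beside the gap between them. The fold change was 2.79 (log2 1.48, SE 0.09, edgeR adjusted p = 2.7e-05), and 1.19 on the log2 scale (SE 0.07) after the correction. NR4A1 (ENSG00000123358) spans chromosome 12, 52022832 to 52059507, plus strand, and is overlapped at its 3' end by the antisense transcript NR4A1AS, which was not analysed here.

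Per kilobase of canonical transcript, the scale on which levels of different genes can be compared, the 3 receptors summed to 15.8 ± 0.6 CPM per kb in OE and 4.85 ± 0.32 CPM per kb in Ctrl (SD, n = 3 each). NR4A1 made up 72.8 ± 3.0% of that sum in OE and 84.9 ± 2.2% in Ctrl. NR4A2 made up 21.4 ± 2.5% in OE and 13.1 ± 1.8% in Ctrl, and NR4A3 made up 5.79 ± 0.50% in OE and 2.05 ± 0.67% in Ctrl (SD, n = 3 each). For each of the 3 receptors the shares in OE libraries did not overlap those in Ctrl libraries. The shares are parts of the same sum, so they do not move independently, and their difference was not tested. NR4A1 had the largest share in all 6 libraries, and that share was lower in OE.

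**Figure D2:**
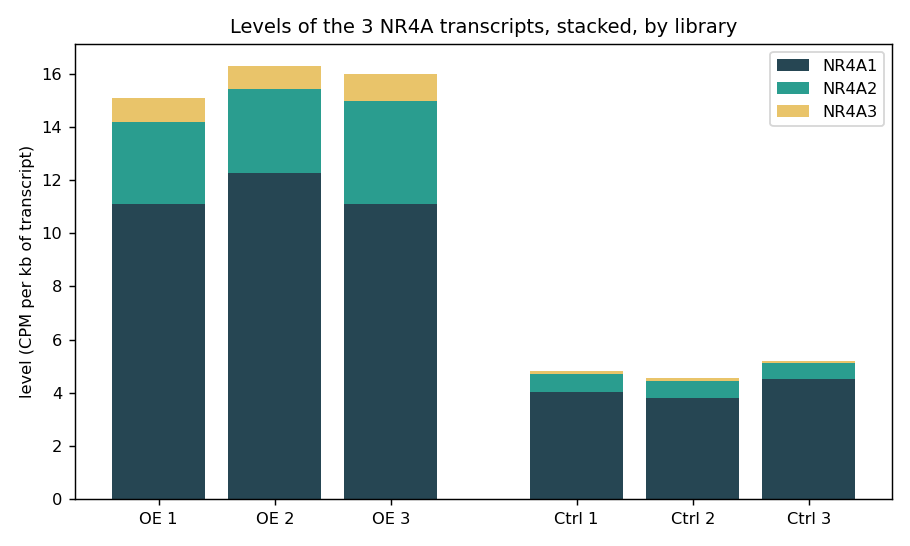
Level of NR4A1, NR4A2 and NR4A3 in CPM per kb of canonical transcript (linear axis), stacked for each OE and Ctrl library. The stacks reach 15.1 to 16.3 CPM per kb in OE and 4.55 to 5.18 CPM per kb in Ctrl, with NR4A1 the largest layer in all 6 libraries.

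EGR1, which many growth factor and stress signals induce through the CArG boxes of its promoter, rose 3.74-fold. It had 26.9, 37.2 and 30.3 CPM in OE libraries 1 to 3, from 2273, 3102 and 2728 counts, against 7.46, 8.13 and 9.64 CPM in Ctrl libraries 1 to 3, from 665, 769 and 866 counts. The second OE library was the highest, and the lowest OE library was well above the highest Ctrl library. The log2 fold change was 1.90 (SE 0.14, edgeR adjusted p = 5.7e-05), and 1.71 (SE 0.12) after the correction. EGR1 (ENSG00000120738) spans chromosome 5, 138465479 to 138469303, plus strand, with no annotated gene overlapping it.

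EGR2, known for its part in myelination and in T cells, was close to the limit of detection. It had 11, 9 and 31 counts in OE libraries 1 to 3 and 17, 8 and 0 counts in Ctrl libraries 1 to 3, or 0.194 ± 0.131 CPM in OE and 0.092 ± 0.096 CPM in Ctrl (SD, n = 3 each). The groups overlapped. The log2 fold change of 1.08 had an SE of 1.04 (edgeR adjusted p = 0.47), and it was 0.37 without the third OE library and 2.15 without the first Ctrl library, so a difference was not detectable at this depth. EGR2 (ENSG00000122877) spans chromosome 10, 62811996 to 62819167, minus strand, and a lncRNA on the same strand overlaps it.

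EGR4, a further member of the family, also had few counts: 42, 16 and 32 in OE against 12, 4 and 5 in Ctrl, with the lowest OE library just above the highest Ctrl library. It was called higher at 4.45-fold (log2 2.15, SE 0.66, edgeR adjusted p = 0.030), but not after the correction (log2 1.82, edgeR adjusted p = 0.083). The call was also lost without OE library 1 or OE library 3 (edgeR adjusted p = 0.12 and 0.066) or without Ctrl library 2 or Ctrl library 3 (edgeR adjusted p = 0.093 and 0.076). EGR1 accounted for 97.7 ± 1.1% of the summed EGR1, EGR2 and EGR4 level per kb in OE and 97.5 ± 2.2% in Ctrl (SD, n = 3 each). WT1, a related zinc finger factor that binds like elements, had a log2 fold change of -0.10 (edgeR adjusted p = 0.47).

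The 2 corepressors that bind EGR proteins moved in opposite directions. NAB2, itself induced by EGR1, rose to 43.96 ± 2.71 CPM in OE, against 25.9 ± 1.6 CPM in Ctrl (SD, n = 3 each; log2 fold change 0.76, edgeR adjusted p = 0.00018). NAB1 fell to 21.3 ± 1.1 CPM in OE, against 33.4 ± 3.3 CPM in Ctrl (log2 fold change -0.65, SE 0.09, edgeR adjusted p = 0.00056). Both calls held after the correction, at 0.46 for NAB2 and -0.34 for NAB1.

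IER3, a stress-induced survival regulator, rose 1.56-fold. Its level was 47.9, 50.7 and 46.3 CPM in OE libraries 1 to 3 against 29.4, 29.9 and 33.4 CPM in Ctrl libraries 1 to 3, with a clear gap between the groups. The log2 fold change was 0.65 (SE 0.07, edgeR adjusted p = 0.00025), and 0.32 (SE 0.05, edgeR adjusted p = 0.0019) after the correction, about a 1.25-fold difference. IER3 (ENSG00000137331) spans chromosome 6, 30743199 to 30744548, minus strand, where IER3-AS1 overlaps it on the other strand. That transcript was at 0.631 CPM in OE and 0.635 CPM in Ctrl, and HCG20, also on the other strand, was not analysed here.

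IER2 was the most abundant of the 7 genes per kb, and of the 6 called genes it had the smallest fold change. It had 323, 321 and 308 CPM in OE libraries 1 to 3 against 276, 261 and 274 CPM in Ctrl libraries 1 to 3, so the groups did not overlap. The 1.17-fold rise (log2 0.23, SE 0.04, edgeR adjusted p = 0.0022) was not found after the correction, where the log2 fold change was -0.09 (SE 0.04, edgeR adjusted p = 0.12). IER2 (ENSG00000160888) spans chromosome 19, 13150411 to 13154911, plus strand, and has the highest GC content of the 7. Both lncRNAs annotated over it on the other strand were not analysed here.

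Of the relatives IER5 and IER5L, the second was called higher. IER5L rose to 47.8 ± 0.8 CPM in OE, against 21.1 ± 2.0 CPM in Ctrl (SD, n = 3 each; 2.27-fold, edgeR adjusted p = 2.7e-05; log2 fold change 0.89 after the correction). IER5, which takes part in the heat shock response, had 38.2 ± 0.4 CPM in OE and 39.7 ± 1.4 CPM in Ctrl (SD, n = 3 each) and was not called (edgeR adjusted p = 0.46). Within the sum of IER2, IER3, IER5 and IER5L, IER2 made up 69.6 ± 0.3% of the level per kb in OE and 75.2 ± 1.3% in Ctrl, and IER5L 8.16 ± 0.18% in OE and 4.56 ± 0.35% in Ctrl (SD, n = 3 each).

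**Figure D3:**
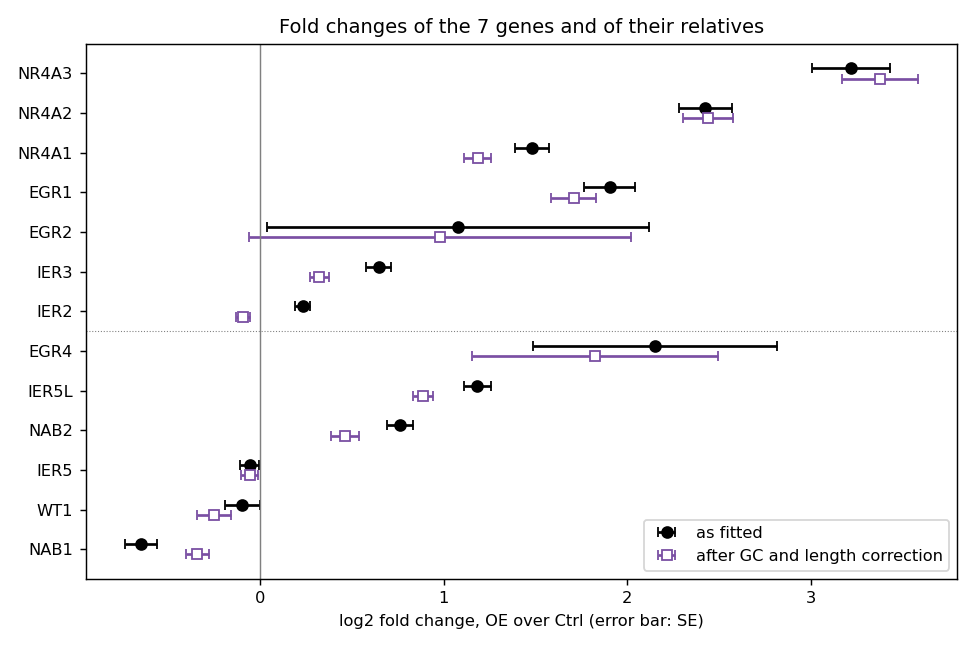
Log2 fold change, OE over Ctrl, with its SE for the 7 genes (above the dotted line) and 6 relatives and corepressors (below it), as fitted (filled) and after the GC and length correction (open). NR4A3 and NR4A2 change little between the fits, NR4A1, IER3 and IER5L come down, and IER2 crosses 0.

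Set side by side, the genes with the lowest level per kb in Ctrl rose by the largest factor, EGR2 excepted. Mean Ctrl levels per kb were 0.098 for NR4A3, 0.630 for NR4A2, 2.68 for EGR1, 4.12 for NR4A1, 25.0 for IER3 and 128 for IER2, and the fold changes followed the reverse order, 9.31, 5.38, 3.74, 2.79, 1.56 and 1.17. Neighbours in the order of Ctrl levels were separated by more than their SD. The Ctrl level enters both quantities and all points share the same 6 libraries, so the order is given as a description. As fitted, differences in level ran almost the other way: 22.4 CPM per kb (SE 3.2) for IER2, 14.1 (SE 1.5) for IER3, 7.38 (SE 0.45) for NR4A1, 7.35 (SE 0.98) for EGR1, 2.76 (SE 0.25) for NR4A2 and 0.817 (SE 0.048) for NR4A3. The values of NR4A1 and EGR1 differed by less than their SE. The place of IER2 in this order holds only as fitted, since its fold change after the correction was below 1 (log2 -0.09). Differences in level are not given after the correction. After it the fold changes of IER3, NR4A1 and EGR1 were 1.25, 2.275 and 3.27, so their places are also given only as fitted.

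**Figure D4:**
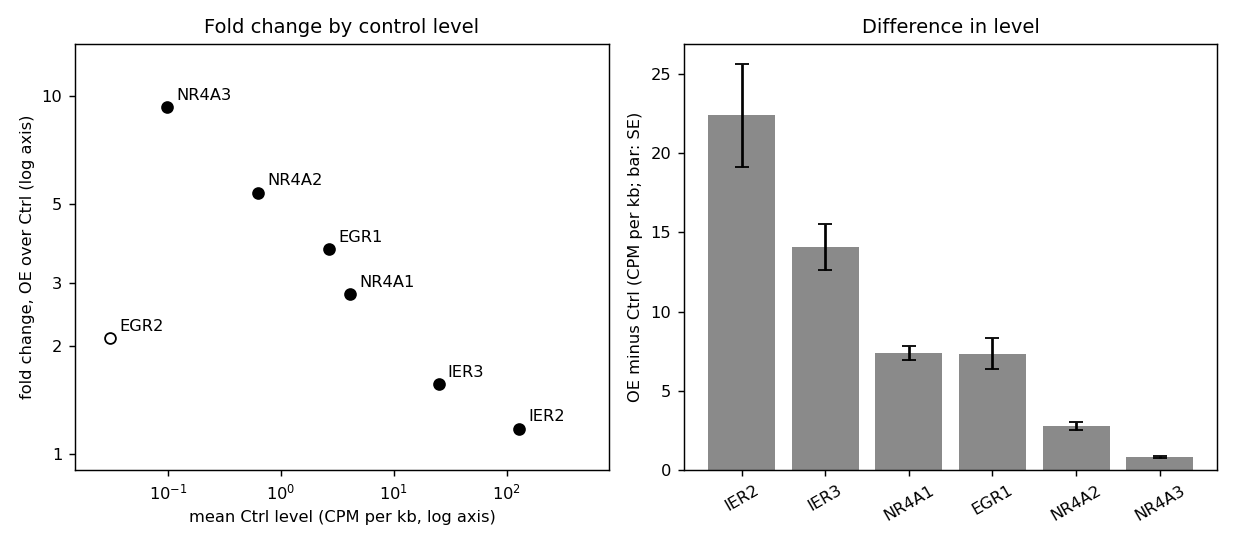
Left, fold change (OE over Ctrl, log axis) against mean Ctrl level in CPM per kb (log axis), with EGR2, which was not called, as an open circle. Right, OE minus Ctrl level in CPM per kb with its SE, largest for IER2 at 22.4 and smallest for NR4A3 at 0.817; values are as fitted, without the correction, after which IER2 was not called and its log2 fold change was -0.09.

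Whether relatives differed in their response was tested on the difference of their log2 CPM in each library, for 5 pairs, with a two-sided exact permutation test whose smallest possible p is 0.10 for 3 libraries against 3. NR4A3 exceeded NR4A1 by 1.72 (SE 0.29) in log2 fold change, NR4A2 exceeded NR4A1 by 0.93 (SE 0.19) and NR4A3 exceeded NR4A2 by 0.79 (SE 0.21). IER3 exceeded IER2 by 0.41 (SE 0.06). In these 4 pairs the OE libraries did not overlap the Ctrl libraries, and the exact p was 0.10 (0.12 adjusted over the 5 pairs), so none could pass 0.05. After the correction the 4 differences were 2.17, 1.24, 0.93 and 0.41. EGR1 minus EGR2 was 0.62 with an SE of 1.19 (exact permutation p = 0.70), and -0.17 without the first Ctrl library, so the difference was not detectable at this depth.

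Profiles of log2 CPM, each centred on its mean over the 6 libraries, were compared by their root mean square distance. Candidates were 11275 other entries with a symbol, no mismatch of symbol and ID, and a mean log2 CPM of at least 2. Those nearest to NR4A1 were DUSP1 (distance 0.044), IFI6 (0.057) and TRAF1 (0.067). DUSP1 is a phosphatase of MAP kinases and itself an immediate early gene, IFI6 is interferon-induced, and TRAF1 is an adaptor of TNF receptor signalling. Their levels were 2.85-fold, 2.83-fold and 2.85-fold higher in OE. Nearest to EGR1 were SAMD11 (0.12), the glutathione-degrading enzyme CHAC1 (0.16) and the stress factor ATF3 (0.17), at 3.83-fold, 3.56-fold and 3.55-fold. With only these groups and 3 libraries in each, the distance mostly reflects a like fold change.

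Other immediate early genes were mostly higher too. The list includes IER5, IER5L, DUSP1 and ATF3, reported above, and ZFP36 and ZFP36L1, reported again below with mRNA decay. Of 49 listed and tested, 33 were higher (67.3%) and 2 lower (4.08%), and their median log2 difference was 0.36. Over all entries tested 18.3% were higher and 19.7% lower, and 11.4% and 11.3% after the correction. The counts of this list and of those below are to be read beside these shares. After the correction 28 were higher and 3 lower, 27 of the 33 rises among them, and the median was 0.33. Those with the smallest p were JUNB, an AP-1 subunit, at 100.1 ± 6.2 CPM in OE and 50.5 ± 1.3 CPM in Ctrl, the differentiation inhibitor ID1 at 471 ± 25 CPM in OE and 276.9 ± 1.5 CPM in Ctrl, the small GTPase RHOB at 61.8 ± 1.7 CPM in OE and 34.4 ± 1.5 CPM in Ctrl, and the stress gene GADD45B at 69.4 ± 3.4 CPM in OE and 39.6 ± 0.6 CPM in Ctrl (SD, n = 3 each). The zinc finger factor KLF6 and the mRNA decay factor ZFP36L2 fell by 0.24 and 0.21 on the log2 scale, and after the correction ZFP36L2 (-0.35) was still lower and KLF6 (-0.09) was not called. The AP-1 genes FOSL1 and JUN, named after their values were seen, were not called as fitted (-0.11 and -0.08) and were lower after the correction (-0.42 and -0.29, edgeR adjusted p = 7.6e-05 and 0.0046).

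Genes of the factors that switch immediate early genes on were called in both directions. Of 7 SRF and ternary complex genes, 3 were higher and 3 lower, with a median of 0.12, and after the correction 1 was higher and 2 lower. SRF itself rose 1.28-fold, to 159 ± 6 CPM in OE, against 125 ± 2 CPM in Ctrl (SD, n = 3 each; edgeR adjusted p = 0.00039), and was still higher after the correction (0.15). ELK3, a ternary complex factor that can act as a repressor, fell to 69.6 ± 5.6 CPM in OE, against 126 ± 10 CPM in Ctrl (SD, n = 3 each; log2 fold change -0.86, and -0.63 after the correction). MRTFB, a coactivator of SRF, fell by 0.70 on the log2 scale (-0.36 after the correction). ELK1 and MRTFA, at 0.27 and 0.24, and ELK4, at -0.72, were called as fitted but not after the correction. The SRF cofactor FHL2 was not called (0.12).

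Of 11 CREB and MEF2 genes 4 were higher and 6 lower, and after the correction 4 were higher and none lower. CREM, which encodes both activators and the inducible repressor ICER, rose 1.54-fold, to 22.01 ± 0.65 CPM in OE, against 14.3 ± 0.3 CPM in Ctrl (SD, n = 3 each; log2 0.73 after the correction). MEF2D and CRTC1, a factor known to act on the NR4A1 promoter and a coactivator of CREB, were higher by 0.49 and 0.48 in log2 fold change (0.41 and 0.39 corrected). CRTC2 was called as fitted (0.43) but not after the correction (0.15), and CRTC3 was not called (-0.04). CREB1, ATF1, MEF2A and the coactivators EP300 and CREBBP had log2 fold changes of -0.53, -0.43, -0.39, -0.27 and -0.16, all called lower, and none of the 5 was called after the correction. That count of 6 lower was 3 without the first OE library or the second Ctrl library. MEF2C was lower as fitted (-0.24) and higher after the correction (0.25, edgeR adjusted p = 0.035).

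Among 9 tested partners of NR4A receptors, 1 was higher and 5 lower, and after the correction none was higher and 4 lower. RXRB, a heterodimer partner, rose by 0.37 on the log2 scale as fitted, with 0.11 after the correction (edgeR adjusted p = 0.089), and RXRA was not called (0.11). The corepressor NCOR1, the coactivator NCOA2 and the orphan receptor NR2C2 fell by 0.52, 0.63 and 0.92 on the log2 scale, and their corrected values of -0.18, -0.26 and -0.62 were still called. The coactivators NCOA1 and NCOA3 were lower as fitted (-0.37 and -0.35) but not after the correction. NR2C1 was not called (-0.23). RXRG was not analysed here.

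Of 18 known targets of EGR proteins, 7 (38.9%) were higher and 2 lower (1 of them lost without the first or second OE or Ctrl library), and the median log2 difference was 0.13. After the correction 7 were higher, 5 of them the same genes, and none was lower. Beside NAB2, the stress cytokine GDF15 rose to 5.16 ± 0.79 CPM in OE, against 1.94 ± 0.66 CPM in Ctrl (SD, n = 3 each; log2 fold change 1.41, edgeR adjusted p = 0.0020), the matrix protein THBS1 1.27-fold and the angiogenic factor VEGFA 1.37-fold, and all 4 were called after the correction. The growth factor FGF2 was lower by 0.32 on the log2 scale and was not called after the correction (0.16).

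Of 11 genes linked to NR4A receptors, 4 were higher and 4 lower, with a median of 0.059. After the correction 2 were higher and 4 lower, with a median of -0.076, and 1 rise and 3 falls were the same genes as before it. The muscle enolase ENO3 rose 1.96-fold (log2 0.68 after the correction). G6PC3, ALAS1 and E2F1 were higher by 0.41, 0.21 and 0.18 on the log2 scale and were not called after the correction. EGFR and the disulfide isomerase TXNDC5 fell by 0.61 and 0.19 on the log2 scale (-0.37 and -0.30 corrected, both still called). SPP1 fell by 0.70 (-0.54 corrected), and RRM2 by 0.22, which was not called after the correction (-0.010). IDH1 and BIRC5, named after their values were seen, were called only after the correction, IDH1 higher (0.23) and BIRC5 lower (-0.14).

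Genes of the ERK route into this response gave 3 higher and 7 lower of 17, and 1 higher and 7 lower after the correction, with none of the 3 rises kept; the 3 were 1 without the first OE library or the first or second Ctrl library and 5 without the third Ctrl library. Beside EGFR, NRAS fell by 0.60 and the downstream kinase RPS6KA3 by 0.59 on the log2 scale, and both were called after the correction (-0.22 and -0.12). The rises of MAP2K2, RPS6KA1 and MAPK3, at 0.30, 0.18 and 0.26, had corrected values of -0.043, -0.052 and -0.067. Of 20 genes of mRNA decay, 3 were higher and 10 lower, and 3 and 6 after the correction. CNOT1 and CNOT6, subunits of the deadenylase that removes poly(A) tails, fell by 0.46 and 0.62 on the log2 scale (-0.15 and -0.19 corrected). CNOT7 and the decapping enzyme DCP2 fell by 0.46 and 0.51 and were not called after the correction (0.042 and 0.046). The deadenylase subunit PAN2 and the decay factor ZFP36L1 rose by 0.46 and 0.24 (0.45 and 0.18 corrected), and ZFP36 by 0.31 (0.015 corrected, not called).

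**Figure D5:**
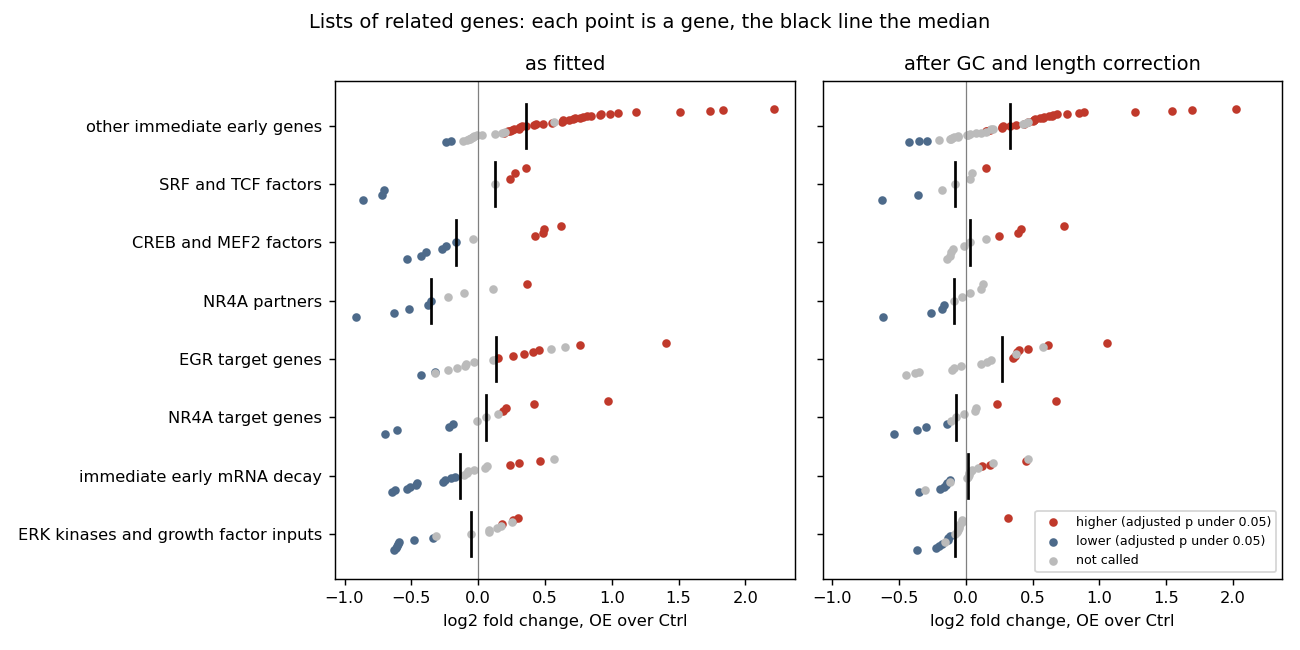
Log2 fold change, OE over Ctrl, of the genes in 8 lists as fitted (left) and after the GC and length correction (right), coloured by call, with the median of each list as a black line. The list of other immediate early genes has its median at 0.36 and 0.33, and the medians of the remaining lists lie between -0.35 and 0.27.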

How the data were processed

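Per the labels' protocols, the authors used fastp for trimming, HISAT2 with GRCh38 for alignment, StringTie and gffcompare for transcripts and edgeR for testing. The sources used here give no versions, strandedness or counting rule. The deposited table holds whole-number counts for each gene, not normalized. Levels are CPM with TMM-scaled library sizes. Counts were tested with edgeR 4.0.16 (R 4.3.3; quasi-likelihood F-test, group alone, filterByExpr with min.count 10 and min.total.count 15), adjusted over 19101 entries; SE is the log2 fold change over the square root of F. Low genes such as EGR2 rest on few counts.

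The correction fitted natural splines (5 degrees of freedom each) to the offset of each library from the mean log2 CPM, by GC content and log2 length of the GENCODE 44 canonical transcript, over entries with a mean log2 CPM above 2, and used them as offsets; 18968 tested entries had both values. Lists were matched through GENCODE IDs, leaving out 8 entries whose symbol and ID name different genes. Per-library log2 CPM used a prior count of 2.

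Members, lists and settings were chosen with earlier results of these data known. Named genes are the members, all of the family, SRF, CREB and NR4A partner lists, up to 4 rising and 4 falling of the other lists by smallest p, and the 3 nearest profiles; a few genes that this rule names are not reported here. Alternatives were DESeq2 size factors or library size alone, other filters, DESeq2 1.42.0, limma 3.58.1 (voom), a replicate block, the correction, and leaving out each library. Replicate libraries were no duplicates: chi-square over degrees of freedom was 11.6 to 22.7 within groups.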

Additional observations from a re-analysis of the deposited data

How the results depend on the processing

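Of the 7 genes, NR4A1, NR4A2, NR4A3, EGR1 and IER3 kept their direction and their call under every alternative run, and IER2 under all but the correction for GC content and length, which reversed it to -0.0928 (-0.0918 with the replicate block added). The cause was not tested. Over leave-one-out fits the log2 fold change ranged from 3.10 to 3.46 for NR4A3, 2.32 to 2.49 for NR4A2, 1.42 to 1.55 for NR4A1, 1.77 to 2.01 for EGR1, 0.61 to 0.71 for IER3 and 0.21 to 0.25 for IER2. EGR2 ranged from 0.37 to 2.15 and was called in none; the 1 CPM filter and DESeq2 gave no adjusted p for it. EGR1 minus EGR2 ranged from -0.17 (reversed, without the first Ctrl library) to 1.64 in the leave-one-out values.

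Over all entries 3496 were higher and 3754 lower. The correction left 2172 and 2165, and 1710 and 1638 with the replicate block. The criterion of the labels gave 338 and 226. Without 1 library in turn they were 2586 to 3439 and 2867 to 3730. The replicate block alone gave 2681 and 3014. Same-numbered libraries did not deviate together (correlations of -0.07, -0.26 and -0.44 over 10091 entries), so the numbers are not taken as pairs. Between OE and Ctrl libraries of different number the correlations ran from -0.155 (OE 1 with Ctrl 2) to 0.359 (OE 3 with Ctrl 2). OE 2 with Ctrl 3 had 0.321, and the cause of these shared deviations was not tested. The correction of the family shares was chosen after seeing the data, and gave an OE minus Ctrl share of NR4A1 of -15.96 percentage points, beside -12.12 as fitted.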
